A study of Mus musculus with 16 samples.

Results

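Spata13 encodes a protein known for its role in cell migration, and the study tested a POU homodimer element near this gene. The locus was taken as the Spata13 gene, chr14:60634001-60764556 on the plus strand of mm10 (GRCm38; ENSMUSG00000021990), with 50 kb on either side. Members were all ChIP-seq summits in that 231 kb window, wherever they came from, and summits within 100 bp of the next were merged into elements. The window held 39 of the 227116 summits of 13 libraries, which merged into 25 of 172918 elements.

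The study profiled genome occupancy by ChIP-seq, which sequences the DNA fragments recovered with an antibody from crosslinked chromatin, at days 1, 5 and 7 of reprogramming. All groups shared the same cells and helper factors. The cells were OG2-MEFs, embryonic fibroblasts of E13.5 mice with an Oct4-promoter GFP transgene, transduced with pMX retroviruses for Sox2 and Klf4 (SK) plus 1 POU factor, and then kept in the chemically defined medium iCD1. Day 0 was the change to iCD1. The Oct4 antibody was used on Oct4-SK cells at days 1, 5 and 7, on Oct4defSox2-SK cells at days 1 and 5 and on Oct4S151M-SK cells at day 1. The Oct6 antibody was used on Oct6M151S-SK cells, dated day 1 in the title of the sample and day 2 in its characteristics. Sox2 was recovered at days 1 and 5 from cells of 3 cocktails, with Oct4, Oct6 or Oct4defSox2 as the POU factor. The study names Sox2 antibodies from different suppliers, and the labels used here do not say which library had which. A difference of antibody between Sox2 libraries therefore cannot be told apart from one of cocktail or day. Oct4defSox2 carries mutations in the surface that contacts Sox2, and the S151M and M151S mutants exchange 1 residue of the POU domain between Oct4 and Oct6. Each group was 1 library, so there was no replicate error, no test was possible and absence of a summit means only that the peak caller listed none. In a bulk culture, fewer cells with a bound site and weaker binding per cell cannot be told apart.

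POU factors bind DNA through a POU-specific domain and a homeodomain joined by a flexible linker, so that one protein can meet several arrangements of short half-sites. A monomer covers the octamer, ATGCAAAT. Oct4 and Sox2 bind side by side on the composite SoxOct element, the arrangement found in many pluripotency enhancers. Pairs of POU proteins bind the palindromic MORE, or MORE+1 with a spacer base in the middle, and Oct6 is known to form such homodimers more readily than Oct4.

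The sequences that carry the results are given here from the GRCm38 genome, each spanning 100 bp to either side of the centre of an element. Capitals mark matches to MORE (up to 1 mismatch), SoxOct (up to 2 mismatches) or the Sox motif (CCATTGT or CCTTTGT followed by any base but A), on either strand. Elements are named by the distance of their centre from the first start of a coding Spata13 transcript (60634243), which lies inside the gene record and is called the first start here. The first shows the element called the homodimer element here for its Oct4 summits on 3 days and its MORE, which was not matched to the sequence that the study tested, the following pair show MORE matches at elements with an Oct4 S151M summit alone, the fourth shows the other element with Oct4 at day 1, the next pair show the clusters with Sox2 summits, and the last shows the strongest Oct4 S151M summit without a match.
Homodimer element (+19.2 kb), chr14:60653357-60653557, plus strand: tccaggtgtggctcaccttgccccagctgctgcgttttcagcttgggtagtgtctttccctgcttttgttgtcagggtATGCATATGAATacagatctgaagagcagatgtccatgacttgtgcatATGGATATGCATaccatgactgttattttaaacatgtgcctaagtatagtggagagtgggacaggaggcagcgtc
+16.5 kb element, chr14:60650609-60650809, plus strand: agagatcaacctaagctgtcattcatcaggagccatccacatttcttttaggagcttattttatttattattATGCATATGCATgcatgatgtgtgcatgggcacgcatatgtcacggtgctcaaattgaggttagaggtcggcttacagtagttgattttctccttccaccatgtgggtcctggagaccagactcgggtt
+38.6 kb element, chr14:60672739-60672939, plus strand: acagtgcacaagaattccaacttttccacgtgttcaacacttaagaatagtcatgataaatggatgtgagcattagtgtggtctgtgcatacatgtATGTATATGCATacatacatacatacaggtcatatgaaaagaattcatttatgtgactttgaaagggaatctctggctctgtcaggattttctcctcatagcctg
+23.4 kb element, chr14:60657556-60657756, plus strand: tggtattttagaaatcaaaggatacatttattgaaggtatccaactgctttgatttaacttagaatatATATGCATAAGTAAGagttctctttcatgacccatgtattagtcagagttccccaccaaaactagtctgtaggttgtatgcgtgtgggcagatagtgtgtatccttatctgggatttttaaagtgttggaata
Intron 1 cluster (+9.0 kb), chr14:60643189-60643389, plus strand: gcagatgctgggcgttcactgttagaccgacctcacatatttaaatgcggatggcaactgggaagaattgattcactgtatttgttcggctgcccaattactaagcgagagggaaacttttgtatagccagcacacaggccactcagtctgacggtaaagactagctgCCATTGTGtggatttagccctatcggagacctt
Intron 9 cluster (+119.4 kb), chr14:60753500-60753700, plus strand: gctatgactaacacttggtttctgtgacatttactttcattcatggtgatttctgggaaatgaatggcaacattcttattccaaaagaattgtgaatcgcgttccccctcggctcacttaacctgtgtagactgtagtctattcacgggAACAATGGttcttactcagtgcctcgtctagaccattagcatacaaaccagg
+139.4 kb element, chr14:60773496-60773696, plus strand: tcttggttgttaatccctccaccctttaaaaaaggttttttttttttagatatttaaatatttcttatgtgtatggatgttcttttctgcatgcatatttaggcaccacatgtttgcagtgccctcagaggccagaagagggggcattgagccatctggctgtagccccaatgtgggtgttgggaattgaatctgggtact

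The annotated genes of the window were Spata13, C1qtnf9, which encodes a secreted C1q/TNF-related protein, and Mipep, which encodes a mitochondrial peptidase, all on the plus strand. Non-coding entries were Gm29266, Gm47810 and Mipepos. Of the 25 elements, 17 lay in the Spata13 gene record, 4 in the upstream flank and 4 in the downstream flank. Within Spata13 none was exonic in the GENCODE M21 basic set. Of the 17, 11 lay in intron 1 of the pair of long Spata13 transcripts with 13 exons, 1 in intron 2, 3 in intron 4 and 1 in intron 9, and the remaining one lay 57 bp before the first start of a coding transcript. In the downstream flank, 1 element lay in intron 2 of C1qtnf9 and 3 lay in introns 4, 7 and 8 of Mipep. The density of elements was 10.8 per 100 kb, against a median of 6.69 and quartiles of 3.87 and 9.45 over the windows of 21938 coding genes drawn the same way. A lower density was seen in 84.4% of those windows.

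Summits at the locus came from 12 of the 13 libraries. Oct4 S151M gave 14 summits, Oct4 gave 2 at day 1, 2 at day 5 and 1 at day 7, and Oct4defSox2 gave 4 at day 1 and 0 at day 5. Oct6 M151S gave 3. In Oct4-SK cells Sox2 gave 2 summits at day 1 and 2 at day 5. It gave 1 at day 1 and 2 at day 5 with Oct6, and 1 at day 1 and 5 at day 5 with Oct4defSox2. Per 100 kb, Oct4 S151M had 6.07 summits at the locus and 3.71 over the genome, Oct4 at day 1 had 0.867 and 0.301, and Oct4defSox2 at day 1 had 1.73 and 1.14. Each of the 12 libraries was denser here than over the genome, several by 1 or 2 summits only. Oct4defSox2 at day 5 had 0.0381 summits per 100 kb over the genome, less than 1 for a window of this length. By density alone its 0 therefore says nothing of the locus. Its summits were commoner at elements with Oct4 on 3 days and MORE, as given below. The lists differed greatly in length, from 1038 summits for Oct4defSox2 at day 5 to 101170 for Oct4 S151M, and read depth was not used here. The score of a summit is the −log10 of the peak caller's p-value and grows with depth. Scores were therefore set beside each other between libraries as ranks or percentiles of the library's own list. The exception was a common minimum score, used to see how counts depended on the processing. A percentile depends in turn on how far down the library's list was called. Most elements carried 1 library (20 of 25). Summits of 2 or more libraries were seen at 5 elements, beside 15.8% of all elements, and summits of 3 or more at 3 elements, beside 7.2%. The same 3 elements had 4 or more libraries, beside 3.86%. Oct4 S151M was the only library at 10 elements, beside 47.5% genome-wide.

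**Figure D1:**
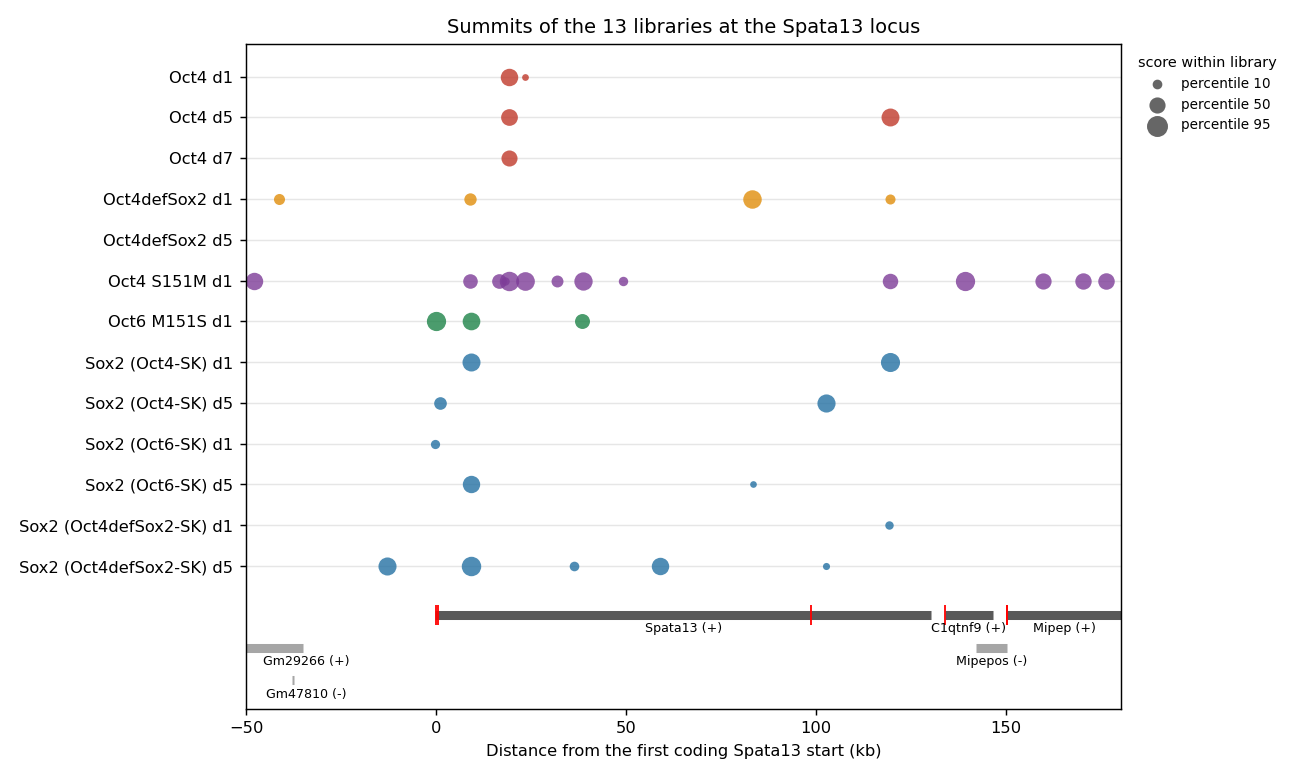
Summits of each library (rows) along the Spata13 window, in kb from the first coding Spata13 start, with point area growing with the percentile of the score within its library. Genes are drawn beneath with coding transcript starts as red ticks. The column at 19.2 kb holds Oct4 on 3 days and Oct4 S151M, while the columns at 9.0 and 119.4 kb hold Sox2 summits as well.

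The question first asked of the locus was where Oct4 stayed from day 1 to day 7. This was seen at a single element, in intron 1, 19.2 kb from the first start. Of the 3 elements with an Oct4 summit on any day it was the only one with a summit on all 3 days, beside 6.48% of 13012 such elements in the genome. The Oct4 summits lay at 60653442 on day 1, 60653473 on day 5 and 60653450 on day 7, and the Oct4 S151M summit at 60653460, all within 31 bp. Their scores were 18.7 at day 1, 13.3 at day 5 and 12 at day 7, and 338 for Oct4 S151M. Their ranks were 1828 of 8216, 1410 of 4854, 1282 of 3638 and 1891 of 101170, so the 4 ranks were close and the percentiles within the lists, 77.8, 71, 64.8 and 98.1, differed with list length. The Oct4 S151M peak was 546 bp wide with a fold enrichment of 49.6 over the local background.

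The homodimer element holds 2 copies of MORE on the plus strand, with 36 bp between them. Against the exact match ATGCATATGCAT that occurs at the +16.5 kb element, and counting from 1 at its 5′ end, the first copy ATGCATATGAAT carries C10A and the second copy ATGGATATGCAT carries C4G. The first copy lies at chr14:60653435-60653446, within the stretch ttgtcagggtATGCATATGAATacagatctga. From its centre the summits were displaced by 1.5 bp for Oct4 at day 1, 9.5 bp at day 7, 19.5 bp for Oct4 S151M and 32.5 bp for Oct4 at day 5. The day 5 summit was nearer to the second copy, at 15.5 bp from its centre. MORE or MORE+1 was found at 136 of 841 elements with Oct4 on 3 days (16.2%), and 11 of these 136 (8.09%) had 2 or more copies that did not overlap. The window held no SoxOct, octamer or Sox match, its GC content was 47.3%, and none of it was masked as repeat.

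**Figure D2:**
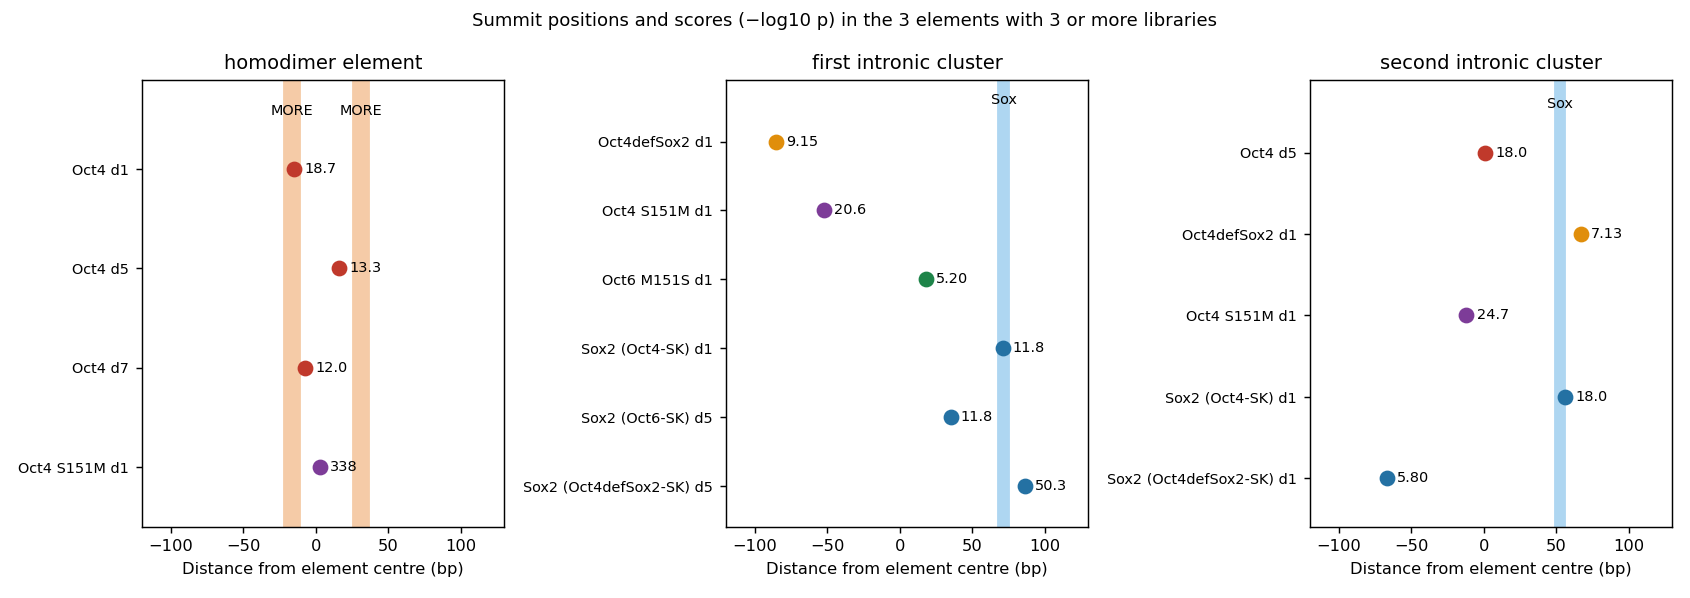
Positions of summits relative to the element centre (bp) for the 3 elements with 3 or more libraries, with the score (−log10 p) printed beside each point and motif matches shaded. At the homodimer element the 4 summits lie between or on the MORE copies, while at both clusters the summits spread wider, with a Sox match towards the downstream end.

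The other libraries had no summit at the homodimer element. Oct4defSox2, which at day 1 had a far longer list than Oct4, gave no summit there on either day. Of the 136 elements with Oct4 on 3 days and a MORE or MORE+1 match, 124 had an Oct4defSox2 summit at day 1 (91.2%) and 81 at day 5 (59.6%), so the Spata13 element belonged to the remaining 12 without one at day 1. The nearest Oct4defSox2 summit at day 1 lay 10236 bp away, in the intron 1 cluster. At those 12 elements the median score of Oct4 at day 1 was 15.9 (range 10.7 to 64.7), compared with 33.2 (range 4.34 to 311) at the 124 with Oct4defSox2, and the ranges overlapped. The median was likewise lower without Oct4defSox2 for Oct4 at day 5 (16.3 against 30.8) and for Oct4 S151M (388 against 568, over the 12 and 122 with its summit), and higher for Oct4 at day 7 (16 against 13.5), with overlapping ranges in each. No Sox2 library had a summit at the element in any cocktail, as at most of the 136, of which 27 (19.9%) had a summit of any Sox2 library. The nearest Sox2 summits lay 10066 bp away or farther. Oct6 M151S was absent as well, and it was listed at 13 of the 136 (9.56%). Oct4 S151M was present at 134 of the 136 (98.5%), Spata13 included.

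**Figure D3:**
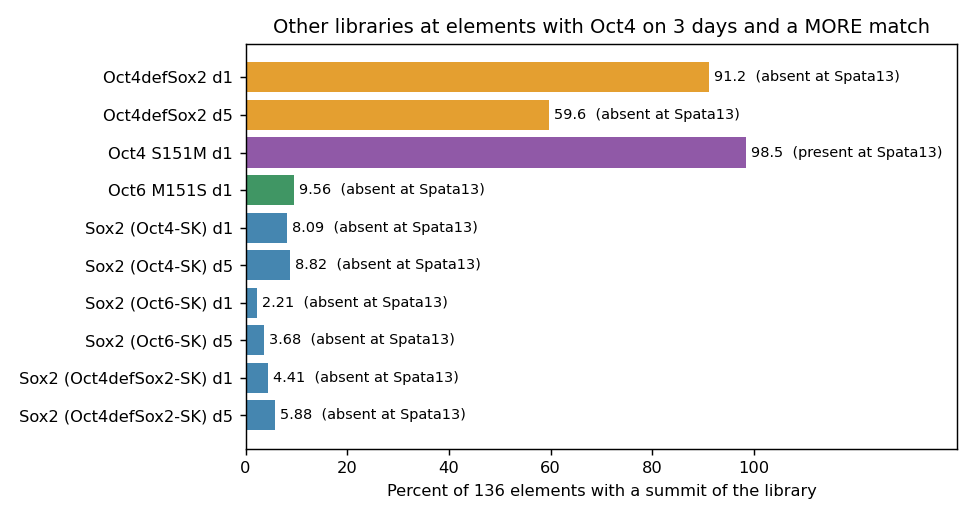
Percent of the 136 elements with Oct4 on days 1, 5 and 7 and a MORE or MORE+1 match that had a summit of each other library, with the state of the Spata13 homodimer element in brackets. Oct4 S151M (98.5%) was present at Spata13 and Oct4defSox2 at day 1 (91.2%) was absent.

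Among those 136 elements the Spata13 element was below the median in all 4 of its libraries. Its Oct4 score was 18.7 against a median of 31.3 at day 1, where 40 elements scored lower and 95 higher. It was 13.3 against 29.9 at day 5, with 19 lower and 116 higher, and 12 against 13.5 at day 7, with 56 lower and 79 higher. For Oct4 S151M it was 338 against 567 over 134 elements, with 35 lower and 98 higher. The element therefore stood nearest to the middle of its class at day 7 and lowest at day 5.

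**Figure D4:**
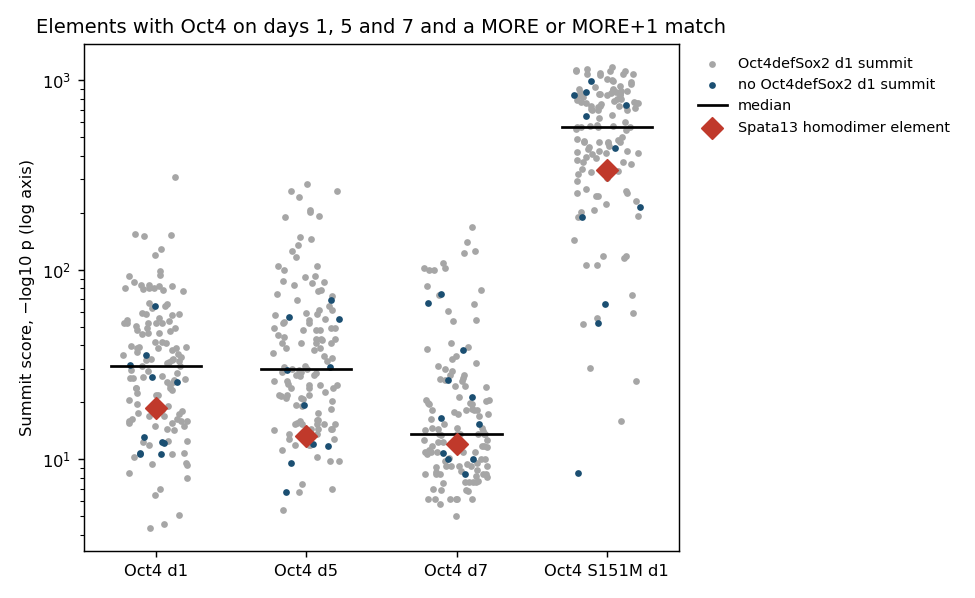
Summit scores (−log10 p, log axis) of the 136 elements with Oct4 on 3 days and a MORE or MORE+1 match, in the 4 libraries found at Spata13; dark points had no Oct4defSox2 summit at day 1, bars are medians and the red diamond is the Spata13 homodimer element. The diamond lies below the median in each library, least so for Oct4 at day 7.

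The same set of 4 libraries was seen at 69 other elements of the genome, and 10 of these 69 (14.5%) held MORE or MORE+1. Among the 136 it was the pattern of 11 elements (8.09%), Spata13 included. By the mean difference in percentile over the 4 libraries, the elements most like it lay nearest to the starts of Abl1 (6.19 points), Tbl1x (9.22), Haao (9.47), Itgb3 (10.5) and Tln2 (10.9). Those nearest to Tbl1x and Tln2 held MORE or MORE+1, and the other three did not. The Oct4 S151M score was 741 nearest to Tbl1x and 216 nearest to Tln2, against 91.0, 31.7 and 61.5 nearest to Abl1, Haao and Itgb3. So the elements alike in their libraries differed in whether they held the motif, and the pair with it had the higher Oct4 S151M scores of the 5.

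The second element with Oct4 at day 1 was the +23.4 kb element, also in intron 1. Its Oct4 summit at day 1 had a score of 4.89, at percentile 5.5 of the list and close to the lowest score that was called, and no Oct4 summit was listed there at day 5 or 7. The Oct4 S151M summit lay 90 bp away with a score of 102 (percentile 90.1) and a fold enrichment of 23.7. The window held a SoxOct match with 2 mismatches, and the nearest MORE-like stretch had 2 mismatches. Its summits were 20 bp (Oct4) and 70 bp (Oct4 S151M) from the centre of the SoxOct match. Of the 2 elements with Oct4 at day 1, 1 kept a summit at day 5, beside 25.6% of 8167 such elements, and both had Oct4 S151M, beside 81.5%. Of the 2 with Oct4 at day 5, both had Oct4 S151M, beside 67.1%. At day 1, 0 of the 2 had Oct4defSox2, beside 60.5%. With 2 elements these counts describe the locus and no more.

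The questions of where Oct4 arrived later and of where Sox2 was found with it led to the intron 9 cluster, 119.4 kb from the first start. It carried 5 libraries, beside 2.13% of elements with 5 or more. Oct4 was absent at day 1, had a score of 18.0 at day 5 (percentile 82.4, the highest Oct4 score of the locus at that day) and was absent at day 7. Oct4defSox2 had a score of 7.13 at day 1 (percentile 20.9), 66 bp from the Oct4 summit, and no summit at day 5, where its list was the shortest of all. Sox2 had a score of 18.0 in Oct4-SK at day 1 (percentile 94.2, its highest at the locus) and of 5.80 in Oct4defSox2-SK at day 1 (percentile 12.6), with no summit in either cocktail at day 5. Neither of the 2 Sox2 elements of Oct4-SK at day 1 was listed at day 5, beside 8.48% of such elements that were. Oct4 S151M had a score of 24.7 (percentile 59.5). So in Oct4-SK cells Sox2 was listed at day 1 and Oct4 at day 5, never both on the same day.

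Of the elements with Oct4 at day 5 and neither day 1 nor day 7, 33% had Oct4defSox2 at day 1 and 7.19% had Sox2 in Oct4-SK at day 1, and the intron 9 cluster had both. The cluster held no MORE, SoxOct or octamer match. A Sox match on the minus strand, 3.5 bp from the Sox2 summit of Oct4-SK at day 1, was the only match to a searched motif. The summits spanned 135 bp, with Oct4 at day 5 and Oct4 S151M 13 bp apart near the centre. When summits had to lie within 50 bp to be merged, this cluster came apart into 3 elements, 1 with Oct4 at day 5 and Oct4 S151M, 1 with Oct4defSox2 and Sox2 in Oct4-SK at day 1, and 1 with Sox2 in Oct4defSox2-SK at day 1. The Oct4 and Oct4defSox2 summits were then no longer at the same element. Elements with 3 or more libraries then numbered 2 in place of 3.

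Over the whole locus, 0 of the 3 elements with Oct4 at day 1 or 5 had Sox2 in Oct4-SK on the same day, beside 20.9% of 10926 such elements.

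The intron 1 cluster, 9.0 kb from the first start, carried the most libraries at the merging distance of 100 bp, 6 in all, beside 1.1% of elements with 6 or more. At 50 bp it came apart at a gap of 70 bp, into 1 part with Oct4defSox2 and Oct4 S151M and 1 part with Oct6 M151S and the 3 Sox2 summits, whose 4 libraries equalled the 4 of the homodimer element. No summit of Oct4 from Oct4-SK cells was among them. Sox2 was listed there in all 3 cocktails, on different days. It had a score of 11.8 in Oct4-SK at day 1 (percentile 83.1) and none at day 5. It had none at day 1 and 11.8 at day 5 in Oct6-SK (percentile 76.9), and none at day 1 and 50.3 at day 5 in Oct4defSox2-SK cells. That last score was at percentile 98.3, rank 374 of 21563, the highest percentile of any Sox2 summit at the locus. The POU factors listed there were Oct4 S151M at day 1 with 20.6 (percentile 52), Oct4defSox2 at day 1 with 9.15 (percentile 35.3) and Oct6 M151S, dated day 1 or day 2 by the labels, with 5.20 (percentile 79.6).

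The summits of the intron 1 cluster ran in order along 172 bp, with Oct4defSox2 and Oct4 S151M at the upstream end and Sox2 at the downstream end. The Sox match there, CCATTGTG on the plus strand, was centred 0.5 bp from the Sox2 summit of Oct4-SK cells, 14.5 bp from that of Oct4defSox2-SK cells and 36.5 bp from that of Oct6-SK cells. The Oct4 S151M summit was 123.5 bp from it. No POU motif was matched in the window, in which the closest stretch to MORE had 5 mismatches and the closest to SoxOct had 4. Of the 9 elements of the locus with a Sox2 summit, 3 had more than 1 Sox2 library, beside 15.8% of 42854 in the genome, and the intron 1 cluster alone had 3, beside 6.44%. A Sox match was found at 5 of the 25 elements, beside 9.94% of all elements, and at 4 of these 9, beside 18.2% of 42803, and 2 of the 9 had a summit of the Oct4 antibody, beside 26.8%.

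The other Sox2 elements held no POU summit at the merging distance of 100 bp. The +102.7 kb element, in intron 4, had Sox2 at day 5 in Oct4-SK (score 15.2, percentile 84.5, the highest of that library at the locus) and in Oct4defSox2-SK cells (4.18, percentile 6.79), and no summit at day 1. Of all elements with Sox2 in Oct4-SK at day 5, 41.6% shared the Oct4defSox2-SK summit of that day. Sox2 at day 5 in Oct4defSox2-SK cells, the longest Sox2 list, was listed alone at 3 of its 5 elements. The scores were 17.4 at -13.1 kb, 5.34 at +36.2 kb and 14 at +58.9 kb. The share of its elements without another library over the genome was not computed. Sox2 in Oct6-SK at day 5 gave a weak summit of 4.49 at +83.3 kb, 135 bp from the strongest Oct4defSox2 summit of the locus, which scored 28.7 at day 1 (percentile 88.1). At the merging distance of 100 bp these stayed separate, and at 250 bp they fell together.

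Near the Spata13 starts 3 elements lay within 1 kb, beside 4.33% of all elements, each with a single library. Sox2 in Oct6-SK at day 1 had a score of 4.89 (percentile 16.4), 381 bp before the first start. Oct6 M151S had a score of 6.97 only 57 bp before that start, which was at percentile 96 of its list (rank 921 of 22804), and its fold enrichment was 3.27. That list reached down to a score of 2.3. Sox2 in Oct4-SK at day 5 had a score of 7.49 (percentile 37.4), 439 bp after the second coding Spata13 start. No Oct4 summit of any cocktail lay within 1 kb of a coding start, and the GC content of the last pair of windows was 62.7% and 67.2%.

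The comparison of Oct4 with Oct4 S151M asks what exchanging this residue does to MORE occupancy. Oct4 S151M was listed at 14 of the 25 elements, beside 58.5% of all elements. Their scores ran from 8.51 to 338, and 4 of them held MORE or MORE+1, beside 24.4% of 101098 Oct4 S151M elements. None of the 11 elements without Oct4 S151M held either, where 0.579% of 71706 did genome-wide. Of the 4, only the homodimer element had Oct4 at day 1, beside 3.44% of 24687, and Oct4 S151M was the only library with a summit at the other 3 by the merging distance of 100 bp, beside 89.5%.

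The Oct4 S151M scores did not follow the closeness of the match within the locus. The +16.5 kb element holds the exact match, 22.5 bp from its summit, and had a score of 21.4 (percentile 53), against 338 at the homodimer element with its imperfect copies. The +38.6 kb element holds 1 copy with C4T, 1.5 bp from its summit, and had a score of 75.2 with a fold enrichment of 19.1. An Oct6 M151S summit lay 185 bp before it, with a score of 3.74 and a q-value score (−log10) of 0.725, and its peak, chr14:60672547-60672922, covered both the MORE copy and the Oct4 S151M summit. The +170.3 kb element in Mipep holds MORE+1 with 1 mismatch, the only MORE+1 of the locus beside 4.01% of all elements, and had a score of 31.7. Of the windows, 39.8% was masked as repeat at +16.5 kb, 23.9% at +38.6 kb and 27.4% at +170.3 kb, and none at the homodimer element. The part of repeats in these scores was not tested. Genome-wide the median Oct4 S151M score was 17.7 without a match, 28.0 where the best match had 1 mismatch and 47.1 where it was exact. By number of copies it was 30.1 with 1 and 47.1 with 2 or more, of which there were 1029. The homodimer element lay above the upper quartile of its groups, 65.5 for 1 mismatch and 115 for 2 or more copies, and the +16.5 kb element lay just below the lower quartile of 21.6 for exact matches.

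**Figure D5:**
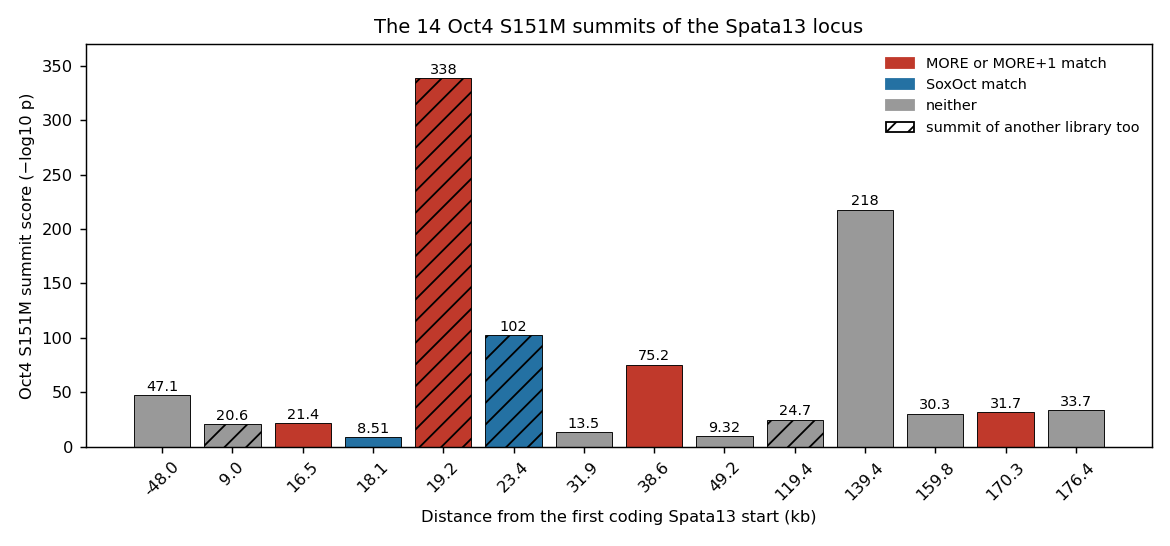
Scores (−log10 p) of the 14 Oct4 S151M summits in order along the locus, in kb from the first coding Spata13 start, coloured by motif and hatched where another library also had a summit. The homodimer element (338) is highest, and the next highest (218) holds no MORE, MORE+1 or SoxOct match.

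The next highest Oct4 S151M summit, at +139.4 kb in intron 2 of C1qtnf9, had a score of 218 (percentile 96.2), a fold enrichment of 35.5 and no other library. Its window held no match to MORE, MORE+1, SoxOct or the octamer, and its closest stretch to MORE had 2 mismatches, while 63.7% of the window was masked as repeat. Of the 3858 Oct4 S151M elements that scored at least as high, 1910 (49.5%) held MORE or MORE+1, beside 24.4% of Oct4 S151M elements of any score. The +18.1 kb element, 1113 bp before the homodimer element, held the octamer within a SoxOct match of 2 mismatches, 6.5 bp from its summit, yet had the lowest Oct4 S151M score of the locus, 8.51 (percentile 12.5). SoxOct was matched at 2 elements of the locus, beside 4.45% of all elements, and the octamer at 1, beside 5.14%. No Sox2 summit was listed at either SoxOct element, where the match had 2 mismatches. The share of all SoxOct elements with a Sox2 summit was not computed, so this describes the locus only. The remaining Oct4 S151M elements without another library had scores of 47.1 at -48.0 kb, 13.5 at +31.9 kb, 9.32 at +49.2 kb, 30.3 at +159.8 kb and 33.7 at +176.4 kb.

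Oct4defSox2 at day 1 had 4 elements, of which 0 had Oct4 at day 1, beside 15.9% of 31004, and 2 had Oct4 S151M, beside 45.5%. The pair with Oct4 S151M were the intron 1 and intron 9 clusters. The other pair, at -41.5 kb (score 7.87) and +83.2 kb (28.7), had no other library. By day 5 none of the 4 had a summit, beside 2.39% of the 31004 that kept one, and the nearest Oct4defSox2 summit to the homodimer element at day 5 lay 2920656 bp away.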

How the data were processed

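The authors aligned paired-end reads to mm10 with Bowtie2 (2.2.5 per the labels), filtered them by mapping quality, removed duplicates with samtools and called peaks and summits with MACS2 per library. Each deposited summit carries a score, the −log10 of the MACS2 p-value, not scaled between libraries. Peak tables deposited for 2 of the libraries (Oct4 S151M, Oct6 M151S) hold a fold enrichment against local background, a ratio, and a −log10 q-value. Scores began at 4.00 to 4.12 except for Oct6 M151S, which began at 2.3 and so had a looser threshold. Neither read depth nor the input samples (3) were used here.

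Samples were grouped by title. Neighbouring summits of the 13 libraries no more than 100 bp apart formed 1 element. Elements with a summit in the gene of GENCODE M21 plus 50 kb were kept. Of all summits, 0 lay past the end of a GRCm38 chromosome, and the 154 off chromosomes 1 to 19, X and Y were left out of motif shares. Consensus matches were searched on both strands within 100 bp of the element centre, a simpler method than the position weight matrices of the study. Counts at the locus are printed beside the same share over all elements, and no test was made with 1 library per group. The locus, lists and motifs were chosen with earlier results of these data known. Described in full were the homodimer element (Oct4 on 3 days with MORE or MORE+1) and elements with 3 or more libraries, and others were named when within 1 kb of a start, holding a POU motif or highest in a library. The procedure was tested on simulated data, in which all 500 merged elements and 1000 planted motifs were recovered. The simulated sites lay far apart with the summits of each close together. Chains of summits and close neighbours, as at this locus, were therefore not tested. Python 3.11.15, numpy 2.4.6, numba 0.67.0 and matplotlib 3.10.9 were used.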

Additional observations from a re-analysis of the deposited data

Results flagged for a closer look

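At 2 elements the presence of a factor at day 5 compared with day 1 went in opposite directions in different cocktails. With 1 library per cocktail and day these differences were not tested, and they rest on whether a summit was called. At the intron 1 cluster, 9.0 kb from the first coding Spata13 start, Sox2 had a summit only at day 1 in Oct4-SK cells (score 11.8) and only at day 5 in Oct6-SK (11.8) and Oct4defSox2-SK cells (50.3). The Sox2 lists of the last cocktail held 5794 summits at day 1 and 21563 at day 5, while those of Oct4-SK held 15222 and 5832, so list length moved in the same direction as the summit in these cocktails. In Oct6-SK it did not, with 3242 and 2673. At the intron 9 cluster, 119.4 kb from that start, Oct4 had a summit only at day 5 (18.0) and Oct4defSox2 only at day 1 (7.13). These summits lay 66 bp apart and fell into separate elements when merged at 50 bp, so the difference at this cluster is one of a single element at the merging distance of 100 bp and not at 50 bp. The list of Oct4defSox2 shrank from 31070 to 1038 summits and that of Oct4 from 8216 to 4854. The part of list length, or of a possible change of Sox2 antibody, in these patterns was not tested.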

How the results depend on the processing

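The number of elements, 25, was between 17 and 29 under other merging distances and flanks, and it was 16 with a score of at least 10 and 4 with the strongest 1038 summits of each library, a setting added for this count after seeing the data. A flank of 100 kb gave 28. The single element with Oct4 on 3 days and its 4 libraries stayed at 1 and 4 with merging at 50 or 250 bp, a score of at least 10 and 1 summit per peak. With the strongest 1038 summits of each library both became 0, since the element ranks below that in every library. Oct4 day 1 elements with Oct4 S151M numbered 2, and 1 with merging at 50 bp or a score of at least 10, because the +23.4 kb element dropped out, and 0 with equal numbers of summits. Elements with 3 or more libraries, for which every alternative was chosen after seeing the data, numbered 3, with 2 at 50 bp and 0 with equal numbers. Elements with MORE or MORE+1 numbered 4, against 1 with 0 mismatches and 11 with up to 2. Elements with SoxOct numbered 2, against 0 with up to 1 mismatch and 6 with up to 3. The counts of Oct4 day 1 elements with Oct4defSox2 and of same-day Oct4 and Sox2 elements were 0 under every alternative run, but with equal numbers no Oct4 day 1 and no Oct4defSox2 summit was left at the locus, so that setting says nothing on the first count. Motif windows around every summit and Oct6 M151S scores of at least 4 were chosen after seeing the data, and neither moved a count by more than 1.5 times. No paired analysis was possible because each group held 1 library and no result came from a test. Read depth was not used here, which limits every statement on an absent summit.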
